A study of Rattus norvegicus with 24 samples.

Results

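The expression of 9 genes of the nuclear factor kappa B (NF-kB) and interferon responses was compared between rats with acute liver failure and sham-operated rats, in small vessels purified from the cerebral cortex. The genes are Nfkbia, Tnfaip2, Csf3, Il1r1, Ifit2, Ifitm3, Bst2, Irf9 and Rsad2. Every probe whose only gene symbol in the platform annotation is one of these was taken, which gave 16 probes out of 31099, for 9 of 14218 genes. Tnfaip2 has 4 probes, Il1r1 3, Ifit2 and Irf9 2 each, and the other genes 1 each. Signals were measured on 24 arrays, 8 in each of 3 groups. In HAL the portal vein was first joined to the vena cava (portocaval anastomosis), so that portal blood bypassed the liver, and after 24 h the hepatic artery was tied off. In HEP the second operation, again after 24 h, took out the liver entirely, and Sham rats had a mock operation in 2 steps. Vessels were taken from rats killed between 8 and 12 h after the second operation. Both models carry the anastomosis and Sham does not, so the anastomosis and the second operation cannot be told apart here. The labels give no strain, age or sex nor whether arrays stand for separate rats. The p-values therefore rest on the spread between arrays alone, and the number of arrays limits the precision.

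NF-kB is a transcription factor that inhibitor proteins hold in the cytoplasm until receptors such as those for interleukin 1 and tumour necrosis factor have them destroyed. It then induces cytokines, adhesion molecules and its own inhibitor. Interferons act through the JAK kinases and a transcription factor complex that contains IRF9, which binds interferon-stimulated response elements in front of antiviral genes. Brain endothelium carries receptors of both kinds and meets blood-borne cytokines first.

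The values are log2 signals normalised with RMA, per the submitters' processing notes, but the table as provided holds only their digits after the decimal point. A signal below 10 on the log2 scale has 9 decimals and a signal from 10 on has 8, less any zeros lost at either end. A probe with 1 to 14 cells of 9 digits among its 24 arrays was called near 10 and read as 9 or 10 plus its decimals, with shorter cells missing. Which cells are missing depends in part on the value, since one just above a whole number loses its leading zero. All other probes were read by their decimals alone, which tell a difference only up to whole log2 units, and a difference beyond 0.5 would read the other way. Such a probe was read only where its decimals lay close together around a circle of 1 log2 unit (resultant length at least 0.5, where 1 means identical decimals). That length was taken over all 24 arrays, so a sizeable shift of 1 group itself scatters the decimals and can leave the probe unread. Counts and differences of probes read by decimals therefore say little on sizeable changes. Of the 16 probes 6 were near 10, 7 lay below 10 and 3 at 10 or above on all arrays. In this way 11 probes of 7 genes were read, 6 near 10 and 5 by their decimals, and 5 were not. No reading is an exact fold. A second reading of the near-10 probes, by a model that allows a level well below 10 and restores lost zeros, is given beside the first because it turns the direction of some differences. It was added after values had been seen.

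The microvessel label was checked against marker genes. Of 13 endothelial markers with a probe, 12 lay at 10 or above on all arrays, Cldn5, Pecam1 and Flt1 among them. The same held for 3 of 8 pericyte, 3 of 5 smooth muscle, 3 of 7 astrocyte and 1 of 5 oligodendrocyte markers. It held for 0 of 13 microglia and macrophage, 0 of 10 neutrophil and monocyte, 0 of 10 lymphocyte, 0 of 8 neuron and 0 of 7 hepatocyte markers. A marker counted where any of its probes lay there. Of all 31099 probes only 1933 did, so a count of 0 in such short lists does not show that these cells were absent. In limma with Benjamini-Hochberg adjustment 0 marker probes passed in any comparison. At an unadjusted p under 0.05 in HAL minus Sham there were 2 of 4 microglia, 3 of 6 neutrophil and monocyte and 2 of 10 lymphocyte probes read, and 0 of the other markers, against 14.1% of all probes read by decimals and 17.1% of those near 10. In HEP minus Sham there were 1 of 6 pericyte, 1 of 6 neutrophil and monocyte, 2 of 10 lymphocyte and 1 of 2 oligodendrocyte probes, against 8.64% and 14.5%. The part of these cells in the results was not tested. In such bulk samples fewer cells of a type and less RNA per cell cannot be told apart.

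The promoters of 4 members are shown for the motifs that the names of the pathways refer to. RefSeq's promoter table (build GRCr8) held 7 of the 9 members, not Csf3 and Ifit2. Both strands of the 300 bases around each start were searched for the kappa B consensus and for GAAANNGAAA, the core of the interferon-stimulated response element. The kappa B consensus stands in 7.51% and GAAANNGAAA in 3.92% of all 33469 promoters of that table. Below are the 250 bases before the start of each gene, with matches in capitals; a match is a description of the letters and no binding was measured.
Nfkbia, chr6:78597073-78597322, minus strand: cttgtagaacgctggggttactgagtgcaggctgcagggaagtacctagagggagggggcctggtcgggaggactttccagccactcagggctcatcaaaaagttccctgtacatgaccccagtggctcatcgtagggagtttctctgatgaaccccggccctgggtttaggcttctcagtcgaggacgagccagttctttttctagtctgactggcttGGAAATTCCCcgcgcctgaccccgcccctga
Ifitm3, chr1:205541759-205542008, minus strand: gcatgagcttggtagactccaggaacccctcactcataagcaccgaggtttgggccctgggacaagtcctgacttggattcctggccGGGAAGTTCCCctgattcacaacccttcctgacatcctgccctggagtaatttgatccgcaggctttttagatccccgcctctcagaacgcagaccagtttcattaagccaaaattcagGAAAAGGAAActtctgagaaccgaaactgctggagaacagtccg
Bst2, chr16:18254968-18255217, minus strand: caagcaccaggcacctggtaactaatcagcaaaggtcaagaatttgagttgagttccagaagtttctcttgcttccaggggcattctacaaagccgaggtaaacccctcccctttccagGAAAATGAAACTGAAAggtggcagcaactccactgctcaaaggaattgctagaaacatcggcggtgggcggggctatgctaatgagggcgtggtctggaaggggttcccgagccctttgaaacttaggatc
Rsad2, chr6:48788121-48788370, minus strand: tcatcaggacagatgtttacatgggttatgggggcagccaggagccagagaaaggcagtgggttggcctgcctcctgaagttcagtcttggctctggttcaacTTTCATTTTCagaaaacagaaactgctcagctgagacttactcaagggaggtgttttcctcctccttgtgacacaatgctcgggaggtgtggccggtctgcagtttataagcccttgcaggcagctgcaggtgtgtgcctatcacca

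Nfkbia holds 1 kappa B match, which starts 31 bases before the gene. Ifitm3 holds 2 overlapping kappa B matches, on opposite strands, and 1 response element core 44 bases before its start. Bst2 holds 2 overlapping cores, the first 131 bases before the start. Rsad2 holds 1 core on the other strand, 147 bases before the start. Il1r1 held 1 kappa B match 135 bases before its start, and the windows of Tnfaip2 and Irf9 held neither string of letters.

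No member passed in the main fit, of all 24 arrays without weights or a block. Csf3 in HEP passed only with array weights, with the replicate number as a block and without HEP array 1. Those passes rest on its near-10 reading, and by the model its HEP difference was 0.12 and did not pass. In HAL minus Sham 0 of 6 near-10 member probes passed at an adjusted p under 0.05 in limma with Benjamini-Hochberg adjustment, where 3.72% of 2526 near-10 probes did, and 0 of 5 read by decimals, where 0.0951% of 13675 did. At an unadjusted p under 0.05 there were 1 of 6, Bst2, and 1 of 5, a Tnfaip2 probe, against 17.1% and 14.1% of all probes of the same reading. In HEP minus Sham 0 of 6 and 0 of 5 passed, against 2.18% and 0% of all probes. At an unadjusted p under 0.05 there were 2 of 6, Csf3 and Nfkbia, and 0 of 5, against 14.5% and 8.64%. The median difference of the 6 near-10 members was -0.27 in HAL and -0.29 in HEP, against -0.03 and -0.0040 over all near-10 probes. By the model the medians were -0.03 and -0.01, against 0.0032 and 0.0063 over all near-10 probes, with 3 of 6 members positive in each comparison. The 5 members read by decimals had median differences of 0.01 and 0.02, against 0.03 and 0.01 over all such probes. The rule for reading by decimals keeps such differences small, since probes with a sizeable shift tend to be left unread.

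An undirected test was run on all 16 probes. It needs no direction, but near-10 probes enter it as the model decodes them, so it depends on that choice, which was made after values had been seen. It takes the arc between the circular means of the decimals of 2 groups and relabels the 8 against 8 arrays in all 12870 ways, so that its smallest p is 0.0001554. None of the 31099 probes passed after Benjamini-Hochberg adjustment in any comparison (0%), and this exact permutation test had no member either. Since 40 probes shared the smallest p in HAL, 15 in HEP and 10 in HAL minus HEP, the lowest adjusted p of any probe was 0.121, 0.312 and 0.483, and the count of 0 says little. At an unadjusted p under 0.05 it held 3 of 16 members in HAL minus Sham, against 11.2% of all probes: Tnfaip2, Csf3 and Irf9, with 1 probe each. In HEP minus Sham it held 1 of 16, Csf3, against 8.82%, and in HAL minus HEP 0 of 16, against 6.33%. With near-10 probes decoded around the circle, as was done first, it held 1 of 16 (Tnfaip2 1375505_at), 0 and 0, against 11.4%, 8.92% and 6.43%, so that Csf3 and Irf9 rest on the model.

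**Figure D1:**
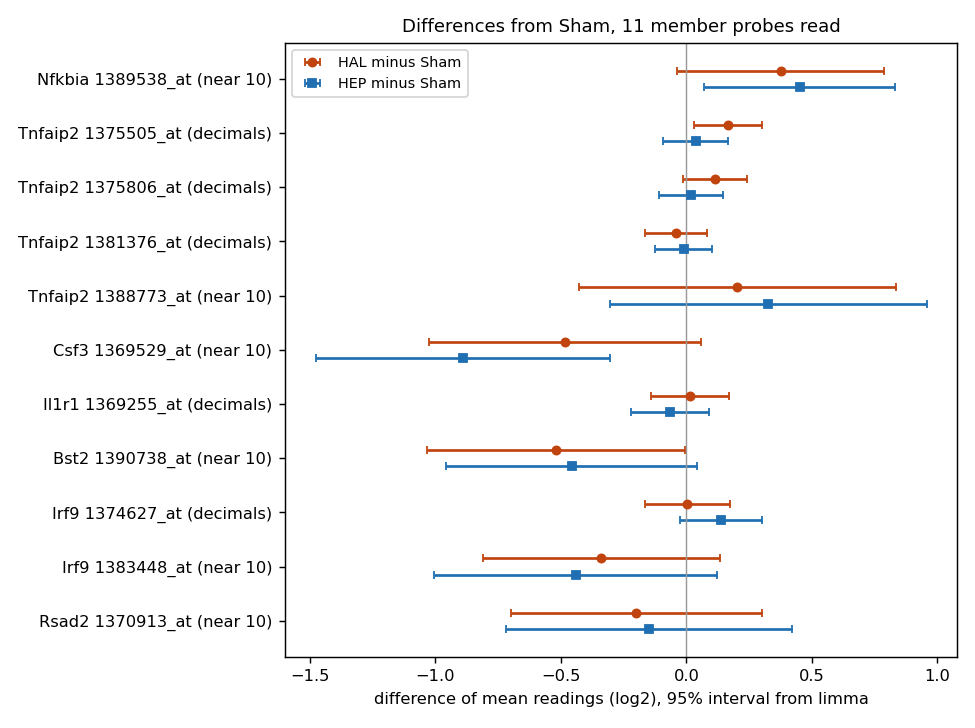
Differences from Sham in mean reading (log2, horizontal axis) for the 11 member probes that were read, with HAL as circles and HEP as squares, and the 95% interval from limma as bars. The near-10 readings have much wider intervals than the readings by decimals, whose spread a circle of 1 log2 unit bounds. Csf3 has the lowest difference, -0.89 in HEP, which the model reads as 0.12.

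Nfkbia encodes the inhibitor of NF-kB that NF-kB itself induces. Its probe 1389538_at was read at a lowest, median and highest reading of 9.83, 10.34 and 10.62 on 5 Sham arrays. It was read at 10.15, 10.57 and 10.92 on 5 HAL arrays and at 10.39, 10.65 and 10.91 on 7 HEP arrays. The order of the means was Sham, HAL and HEP, with overlapping groups, and the only readings below 10 were those of Sham arrays 3 and 8. The mean reading was 10.23 ± 0.38 (SD, n = 5) in Sham, 10.61 ± 0.32 (SD, n = 5) in HAL and 10.69 ± 0.19 (SD, n = 7) in HEP. The difference was 0.38 in HAL (SE 0.20, adjusted p = 0.340 in limma) and 0.45 in HEP (SE 0.18, adjusted p = 0.233), and neither passed. Between 1 and 3 arrays of a group had too few digits to be read. The model, which fills these in, gave smaller differences of 0.09 and 0.21 (adjusted p = 0.824 and 0.556). By the model 0 of 6 near-10 members passed in limma in HAL, HEP or HAL minus HEP, against 5.1%, 3.8% and 0.0396% of near-10 probes, with 1, 0 and 0 at an unadjusted p under 0.05, against 19.5%, 16.4% and 9.1%.

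Tnfaip2 encodes a protein of the cytoplasm first found as induced by tumour necrosis factor in endothelial cells. Probe 1375505_at had decimals of -0.15, 0.08 and 0.19 (lowest, median and highest of 8 Sham arrays, a negative value lying just below a whole number). They were 0.08, 0.25 and 0.34 on 7 HAL arrays and -0.22, 0.15 and 0.23 on 8 HEP arrays. HAL stood highest, and the groups overlapped, with HEP split between 6 arrays from 0.12 to 0.23 and HEP arrays 1 and 2 below 0. The difference in HAL was 0.17 (SE 0.07, 95% interval 0.03 to 0.30, adjusted p = 0.242 in limma), and the exact permutation test gave p = 0.00435, or 0.257 adjusted over all probes. In HEP the difference was 0.04 (SE 0.06, adjusted p = 0.919). With short cells missing the difference was 0.25 in HAL and 0.03 in HEP, and neither passed. That setting leaves out values just above a whole number.

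Differences of the other Tnfaip2 probes did not pass either. Probe 1375806_at had a mean of 0.41 ± 0.12 (SD, n = 8) in Sham, 0.52 ± 0.12 in HAL and 0.43 ± 0.11 in HEP, with differences of 0.12 (SE 0.06, adjusted p = 0.409 in limma) and 0.02 (adjusted p = 0.964). Probe 1381376_at had the tightest decimals of all members, between 0.75 and 0.88 on the 8 Sham arrays, with differences of -0.04 (adjusted p = 0.801) and -0.01 (adjusted p = 0.979). Probe 1388773_at counted as near 10 and had differences of 0.20 and 0.33 there (adjusted p = 0.813 and 0.693), which ranged from 0.02 to 0.34 and from 0.14 to 0.47 with 1 array left out. The model placed it well below 10, where its differences were 0.01 and -0.08. Of the probes of this gene that were read by decimals, 2 of 3 were thus higher in HAL than in Sham and 1 lower, and none passed.

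**Figure D2:**
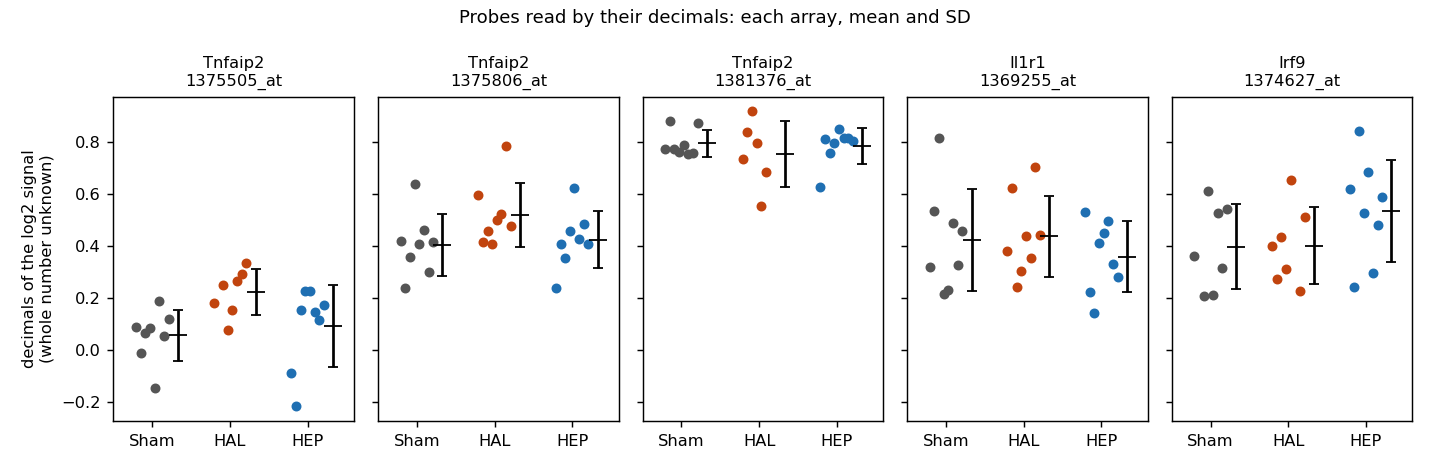
Decimals of the log2 signal (vertical axis, in log2 units, whole number unknown) on each array for the 5 member probes read by their decimals, by group, with the mean and SD as bars. As read, the HAL arrays of Tnfaip2 1375505_at lie between 0.08 and 0.34 and the Sham arrays between -0.15 and 0.19. The groups of all panels overlap in this reading.

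Csf3 encodes granulocyte colony-stimulating factor, a cytokine that endothelial cells secrete on NF-kB activation. Read as near 10, probe 1369529_at had a lowest, median and highest reading of 9.89, 10.20 and 10.98 on 8 Sham arrays, 9.26, 9.67 and 10.92 on 8 HAL arrays and 9.10, 9.17 and 10.67 on 6 HEP arrays. HEP array 1 stood at 10.67 and the other 5 read between 9.10 and 9.29, all below the lowest Sham array. The mean was 10.32 ± 0.44 (SD, n = 8) in Sham, 9.83 ± 0.62 (SD, n = 8) in HAL and 9.42 ± 0.61 (SD, n = 6) in HEP. The difference was -0.48 in HAL (SE 0.26, adjusted p = 0.352 in limma) and -0.89 in HEP (SE 0.28, 95% interval -1.48 to -0.31, adjusted p = 0.09998). Without HEP array 1 it was -1.14 in HEP (adjusted p = 0.0229), which passes in this near-10 reading.

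The direction for Csf3 is not settled, and its near-10 reading is doubtful. The SD of its probe over the arrays read was 0.64 as near 10 and 0.13 in the decimals of the model. Read as near 10, its cells of 9 digits left a gap between 9.36 and 9.89. The model, which could choose a level near 10, placed this probe well below 10, near a whole number. There a value just above the whole number loses its leading zero and so looks like one from 10 on. Its decimals in that reading were 0.02 ± 0.10 (SD, n = 8) in Sham, 0.19 ± 0.15 in HAL and 0.14 ± 0.08 in HEP. The differences were then 0.17 (SE 0.06, adjusted p = 0.106 in limma) in HAL and 0.12 (SE 0.06, adjusted p = 0.348) in HEP, positive where the first reading was negative. The undirected exact permutation test gave p = 0.0275 in HAL and 0.0246 in HEP, or 0.387 and 0.508 adjusted over all probes.

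Il1r1 encodes the signalling receptor of interleukin 1, which is known for strong expression on brain endothelium. Probe 1369255_at lay below 10 and had decimals of 0.42 ± 0.20 (SD, n = 8) in Sham, 0.44 ± 0.16 in HAL and 0.36 ± 0.14 in HEP. The differences were 0.01 (SE 0.08, 95% interval -0.14 to 0.17, adjusted p = 0.962 in limma) and -0.06 (SE 0.08, 95% interval -0.22 to 0.09, adjusted p = 0.872). Probe 1392946_at lay at 10 or above on all 24 arrays, so the same gene has probes on both sides of that level. Its decimals, like those of 1370750_a_at, were too scattered to be ordered (resultant lengths 0.341 and 0.150). The exact permutation test gave p = 0.366 and 0.744 for 1392946_at in HAL and HEP and p = 0.656 and 0.239 for 1370750_a_at.

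**Figure D3:**
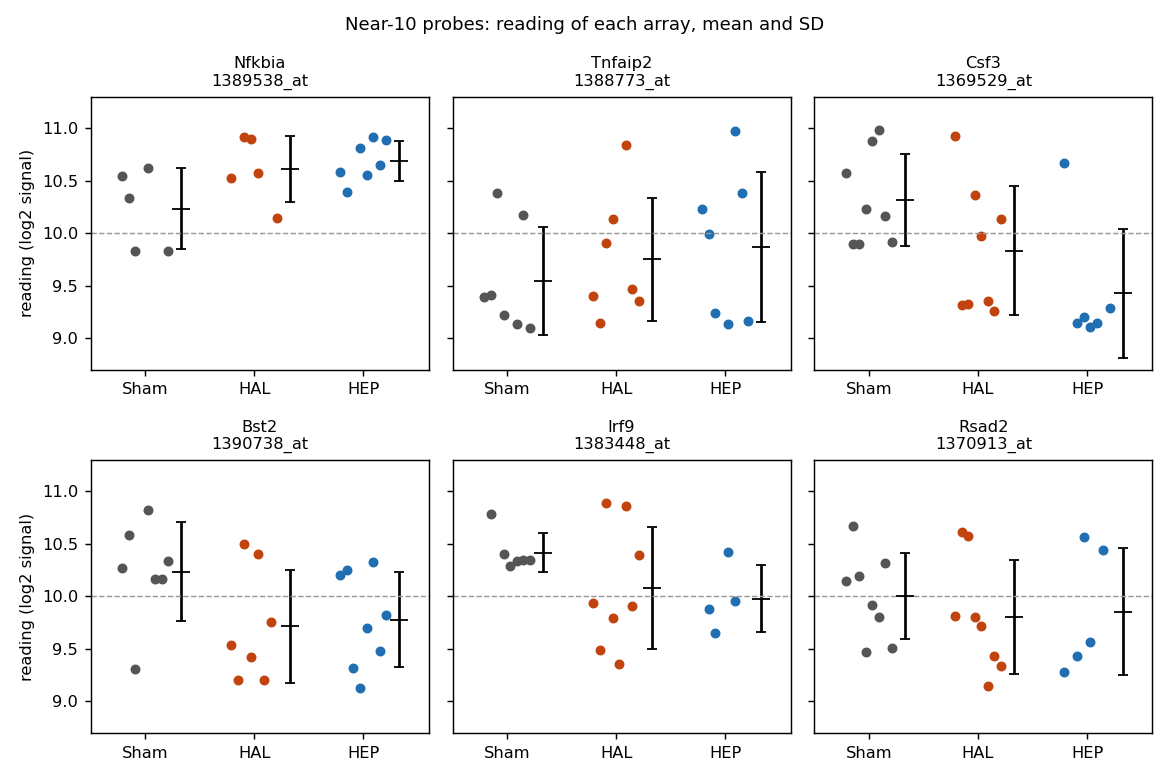
Readings (log2 signal, vertical axis) of each array for the 6 member probes near 10, by group, with the mean and SD as bars and a dashed line at 10. Arrays with too few digits are missing, Csf3 shows 5 HEP arrays between 9.10 and 9.29 and 1 at 10.67, and all Irf9 readings in Sham lie above 10.

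Irf9 encodes the DNA-binding subunit of the complex through which type I interferon acts. Probe 1383448_at had a lowest, median and highest reading of 10.29, 10.35 and 10.78 on 6 Sham arrays, 9.36, 9.92 and 10.89 on 8 HAL arrays and 9.66, 9.92 and 10.42 on 4 HEP arrays. All 6 Sham readings were above 10, against 3 of 8 in HAL and 1 of 4 in HEP, and the highest HAL readings still exceeded every Sham reading. The 4 HEP and 2 Sham arrays left out had too few digits. The model put them just above 10, by 0.05 to 0.10 in HEP and by 0.09 and 0.11 in Sham. The HEP readings thus leave out arrays because of their value. The differences were -0.34 in HAL (SE 0.23, adjusted p = 0.496 in limma) and -0.44 in HEP (SE 0.27, adjusted p = 0.493), and -0.26 and -0.31 by the model (adjusted p = 0.454 and 0.414). A signal below 10 shows as a cell of 9 digits unless it lost a zero. Such a cell was found on 0 of 8 arrays in Sham, 5 of 8 in HAL and 3 of 8 in HEP. Fisher's exact test, two-sided and added after values had been seen, gave p = 0.0256 for HAL (0.527 adjusted over 2527 near-10 probes) and 0.2 for HEP. Of the 6 near-10 members 1 had an unadjusted p under 0.05 in this test in HAL, 0 in HEP and 0 in HAL minus HEP, against 7.64%, 6.21% and 2.57% of all near-10 probes, and after adjustment 0 passed, against 0.317%, 0% and 0%. The undirected exact permutation test gave p = 0.0365 in HAL (0.412 adjusted), at an arc of 0.455 of a log2 unit. That is close to the largest arc there can be, so this p goes with no direction.

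The second Irf9 probe did not share this pattern. Probe 1374627_at, read by decimals with a resultant length of 0.521, just inside the limit, had means of 0.40 ± 0.16 (SD, n = 7) in Sham, 0.40 ± 0.15 (SD, n = 7) in HAL and 0.54 ± 0.20 (SD, n = 8) in HEP. The differences were 0.0042 in HAL (adjusted p = 0.991 in limma) and 0.14 in HEP (SE 0.08, adjusted p = 0.662). Its HEP difference had the opposite sign to that of 1383448_at, and neither passed.

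**Figure D4:**
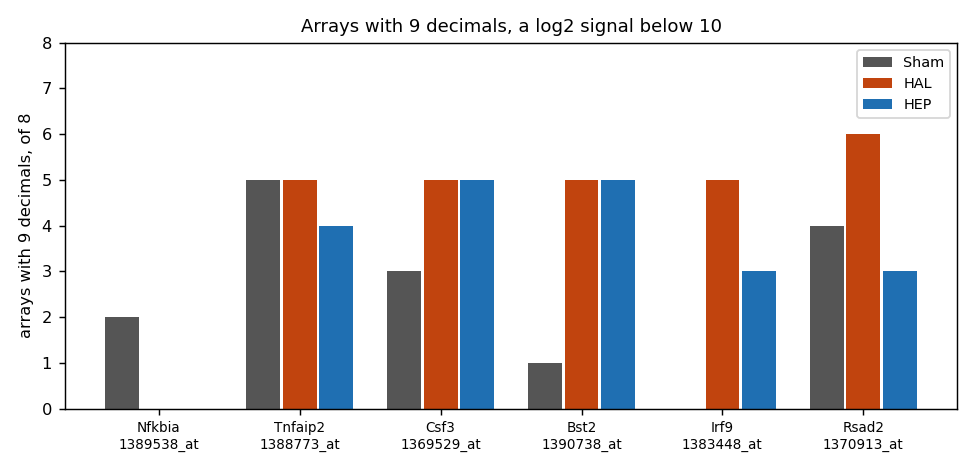
Number of arrays out of 8 (vertical axis) with a cell of 9 digits, which a log2 signal below 10 gives, for the 6 near-10 member probes and the 3 groups. Bst2 has 1 such Sham array against 5 HAL and 5 HEP arrays, and Irf9 has 0 against 5 and 3.

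Bst2 encodes tetherin, an interferon-induced membrane protein that holds budding virus at the cell surface. Probe 1390738_at had readings of 9.31, 10.27 and 10.82 (lowest, median and highest of 7 Sham arrays), 9.20, 9.53 and 10.50 on 7 HAL arrays and 9.13, 9.76 and 10.33 on 8 HEP arrays. Sham array 3 stood low at 9.31, and the other Sham arrays read lay between 10.17 and 10.82, so the groups overlapped through that array and through the highest HAL and HEP arrays. The mean was 10.24 ± 0.47 (SD, n = 7) in Sham, 9.72 ± 0.54 (SD, n = 7) in HAL and 9.78 ± 0.45 (SD, n = 8) in HEP. The difference was -0.52 in HAL (SE 0.25, adjusted p = 0.286 in limma) and -0.46 in HEP (SE 0.24, adjusted p = 0.389). The model gave -0.46 and -0.44, and Fisher's exact test p = 0.119 in each comparison.

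Rsad2 encodes viperin, an interferon-induced enzyme that blocks viral RNA synthesis. Probe 1370913_at had readings of 9.47, 10.03 and 10.67 on 8 Sham arrays, 9.15, 9.76 and 10.62 on 8 HAL arrays and 9.28, 9.56 and 10.56 on 5 HEP arrays. The groups overlapped over almost their whole range. The 3 HEP arrays left out had too few digits, and the model put them just above 10, by 0.00042 to 0.09. The HEP readings thus leave out arrays because of their value. By the model the median was 9.86 in Sham and 10.02 in HEP. The differences were -0.20 in HAL (SE 0.24, adjusted p = 0.748 in limma) and -0.15 in HEP (SE 0.28, adjusted p = 0.875), and the HEP difference was 0.05 by the model. With 1 array left out the differences ranged from -0.32 to -0.10 in HAL and from -0.33 to -0.0047 in HEP.

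Ifit2, whose protein binds viral RNA, and Ifitm3, a membrane protein that hinders virus entry, were not read. Ifitm3 1387995_a_at and Ifit2 1384180_at lay at 10 or above on all 24 arrays, and Ifit2 1379568_at lay below 10. Their decimals had resultant lengths of 0.106, 0.457 and 0.217. In Ifitm3 the circular means of Sham and HEP lay 0.495 of a log2 unit apart, close to the largest arc there can be, which leaves the direction unreadable (exact permutation p = 0.0996, or 0.637 adjusted). For Ifit2 the exact permutation test gave p = 0.736 and 0.919 for 1384180_at and p = 0.823 and 0.937 for 1379568_at, in HAL and HEP.

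**Figure D5:**
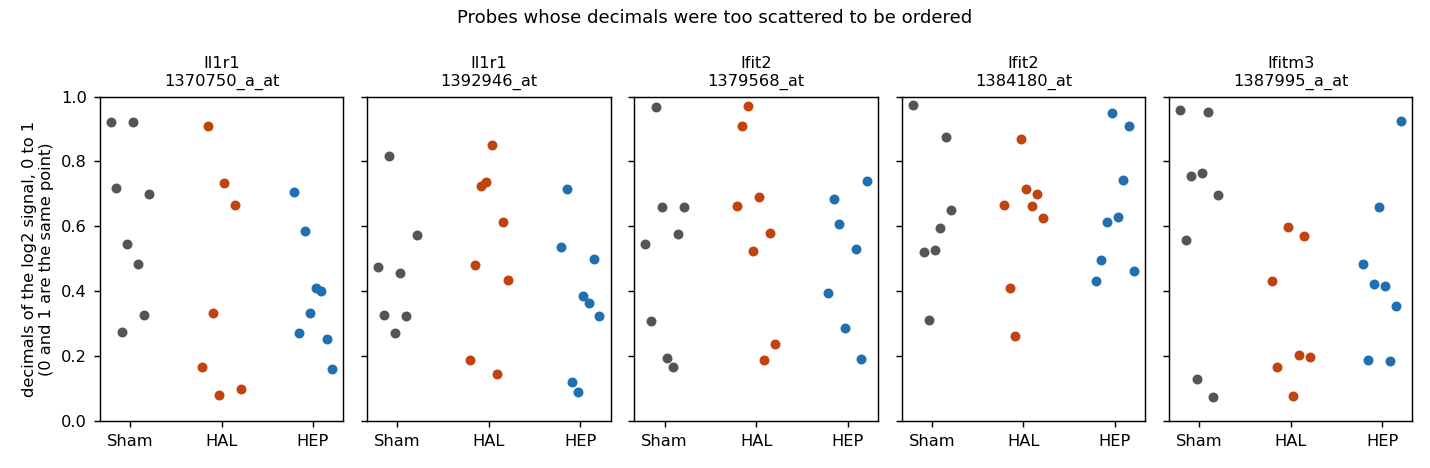
Decimals of the log2 signal (0 to 1, both ends being the same point) on each array for the 5 member probes that were too scattered to be ordered, by group. The resultant lengths lie between 0.106 and 0.457, under the limit of 0.5, so neither a mean nor a direction was read.

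HAL and HEP were also compared directly, to see whether a liver left without blood and a liver removed differ in these genes. In limma 0 of 6 near-10 and 0 of 5 other member probes passed, against 0% of all near-10 probes and 0% of all probes read by decimals, and 0 of 6 and 0 of 5 had an unadjusted p under 0.05, against 8.55% and 7.32%. Differences ranged from -0.13 for Irf9 1374627_at to 0.41 for Csf3 (SE 0.28, 95% interval -0.18 to 0.99, adjusted p = 0.741), the latter again in the reading that the model turns to 0.05. For Tnfaip2 1375505_at the difference was 0.13 (95% interval -0.0045 to 0.26, adjusted p = 0.690). The HAL and HEP differences from Sham share the Sham arrays and are therefore only set side by side above.

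The rest of both pathways was described by 4 lists that hold no member. Most probes of these lists were not read, so the limma counts below cover only part of them. Limma counts at an unadjusted p under 0.05 stand against 17.1% of all near-10 probes and 14.1% of probes read by decimals in HAL. In HEP the shares were 14.5% and 8.64%. Of 46 probes of NF-kB components and targets 14 were read. Of these 0 passed in limma in HAL or HEP, with 2 and 1 at an unadjusted p under 0.05. The probe of that list with the smallest p was 1376880_at of Tbk1, a kinase that activates the interferon regulator IRF3. Its decimals were 0.96 ± 0.14 (SD, n = 8) in Sham and 0.73 ± 0.16 (SD, n = 8) in HEP, a difference of -0.23 (SE 0.07, adjusted p = 0.201), at 10 or above on all arrays. The median difference of the 13 probes of that list read by decimals was 0.06 in HAL and 0.03 in HEP.

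Of 50 probes of interleukin 1, tumour necrosis factor and colony-stimulating factor signalling 22 were read. Of these 1 near-10 probe passed, lower in HAL, where 3.72% of all near-10 probes passed in either direction, and 0 passed in HEP. At an unadjusted p under 0.05 there were 6 in HAL and 3 in HEP. It was 1398934_at of Tab2, an adaptor that joins the kinase TAK1 to ubiquitin chains behind the interleukin 1 receptor. Its readings were 10.47, 10.54 and 10.74 on 8 Sham arrays (lowest, median and highest), 9.91, 10.13 and 10.31 on 7 HAL arrays and 9.96, 10.30 and 10.36 on 4 HEP arrays. No HAL or HEP reading reached the lowest Sham reading. Only 7 of 8 HAL and 4 of 8 HEP arrays were read, so this does not cover the whole groups. Tab2 fell by 0.45 in HAL on the log2 scale of the readings (SE 0.11, adjusted p = 0.0226 in limma), and its HEP difference was -0.33 (SE 0.13, adjusted p = 0.209). By the model both passed (adjusted p = 0.00121 in HAL and 0.00852 in HEP). Without HAL array 4 or HAL array 6 the HAL difference was -0.43 (adjusted p = 0.0542 and 0.0537), which does not pass. The median difference of the 6 near-10 probes of this list was -0.22 in HAL and -0.11 in HEP, and that of its 16 probes read by decimals was 0.04 and 0.02.

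Of 41 probes of interferon signalling 15 were read. Of these 0 passed in HAL or HEP, with 2 and 0 at an unadjusted p under 0.05. Jak1 1383478_at, a kinase of the interferon receptors at 10 or above on all arrays, had the smallest p, with a difference of -0.23 in HAL (SE 0.07, adjusted p = 0.146 in limma). Of 65 probes of other interferon-induced genes 15 were read and 0 passed, with 3 and 1 at an unadjusted p under 0.05. Igtp 1396163_at, an interferon-induced GTPase, had a difference of -0.16 in HAL (SE 0.06, adjusted p = 0.245). The 13 probes of the last list read by decimals had a median difference of 0.01 in HAL and -0.04 in HEP.

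The genes whose readings were most like those of Csf3, the member with the smallest p in limma on these readings, were looked up. The search covered 1404 near-10 probes that shared at least 18 arrays with it. Plekha1 had a Pearson correlation of 0.659 over 18 arrays, Trim66 of 0.643 over 20 and Zfp213 of 0.633 over 22. They are the highest of 1404 correlations, and how high unrelated probes would reach was not tested. These arrays share their groups and the rule by which digits were read, and the likeness rests on the near-10 reading of Csf3 that the model does not share.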

How the data were processed

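Microvessel RNA of 24 samples, 8 per group by the sample titles, was hybridised to 1 array each. The authors made the values with RMA (per the submitters' processing notes). Its version and the RNA extraction are not given in the sources used here. The labelling kit named in the labels is one for whole-transcript arrays, but the probes carry names of a 3′ expression array, a mismatch that was left as it is. As provided here, the deposited table holds whole numbers of at most 9 digits, read as the decimals of log2 values without leading or trailing zeros. The planned test for log2 values was kept on the readings.

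Group means of all 24 arrays were compared with limma 3.58.1 (R 4.3.3), using eBayes without trend and Benjamini-Hochberg adjustment over all probes of the same reading (2526 near 10, 13675 by decimals, 2 readings needed per group). Cells 1 digit short took the nearer candidate in the reading by decimals. A probe outside 1 to 14 cells of 9 digits was unwrapped around the circular mean of all 24 arrays, without use of the groups. The undirected permutation test and Fisher's exact test were run with scipy 1.17.1, numpy 2.4.6 and pandas 2.3.3 under Python 3.11.15. The model takes a normal spread (SD 0.08 to 0.6) around 1 level per probe, which may lie well below 10 or near it.

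The model, its use to decode near-10 probes in the permutation test, and Fisher's test were chosen after values had been seen. An earlier reading of near-10 probes around the circle was tried and dropped. With it fewer members had an unadjusted p under 0.05 in the permutation test, and 0 passed adjustment before and after. The members and lists were chosen with earlier results of these data known. Named were all members, from each list up to 4 called genes or else the one with the smallest p, and the 3 genes most correlated with the member of the smallest limma p.

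Of 31099 probes 20832 had 1 gene symbol. Columns held 0 identical pairs and 0 unmapped ones. Scripts were tested on simulated data.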

Additional observations from a re-analysis of the deposited data

Results flagged for a closer look

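In 33 groups of readings of the 11 member probes, 4 held an array that stood apart from the rest of its group by Dixon's test, where chance gives about 1 in 20. For Csf3 1369529_at HEP array 1 read 10.67 while the other HEP arrays read 9.10 to 9.29. By the model its decimals were 0.0672, within the HEP range of 0.0448 to 0.290. For Bst2 1390738_at Sham array 3 read 9.31 and the other Sham arrays 10.17 to 10.82. For Irf9 1383448_at Sham array 2 read 10.78 and the others 10.29 to 10.40. For Tnfaip2 1381376_at HEP array 1 had decimals of 0.63 and the others 0.76 to 0.85.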

How the results depend on the processing

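Of the 33 member differences, 18 kept their sign in the 10 to 12 limma alternatives that gave them a value and with each of the 24 arrays left out, and 15 did not. The number of member probes called stayed at 0 in HAL minus Sham and HAL minus HEP under the limma alternatives and in Fisher's test. The 0 of the permutation test was nearly fixed by its smallest p and says nothing on stability. In HEP minus Sham the number called became 1, Csf3, with array weights (-0.99, adjusted p = 0.0387 in limma), with the replicate block (-1.03, adjusted p = 0.0272) and without HEP array 1 (-1.14, adjusted p = 0.0229). With 1 array left out it ranged from 0 to 1. These fits used the near-10 reading, and by the model Csf3 was 0.12 in HEP (adjusted p = 0.348 in limma). The labels do not say whether the replicate numbers pair the samples. Same-numbered arrays of different groups correlated from -0.117 to 0.191 over 24 pairs, of which 6 were over 0.1. For 8 of 24 samples the best correlate in other groups had their number, a hint of pairing that comes from the data and not the design. The block also ended the call of Tab2 in HAL (-0.45, adjusted p = 0.0904), as did leaving out Sham array 3 and HAL arrays 2 and 5 (-0.46, adjusted p = 0.0548).

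Signs turned as follows. With 3 to 12 cells of 9 digits as the range, and by the model, Csf3 was 0.17 in HAL and 0.12 in HEP, and Tnfaip2 1388773_at was -0.0758 in HEP and 0.0816 in HAL minus HEP. By the model Rsad2 was 0.0464 in HEP. With short cells missing, Tnfaip2 1375806_at was -0.00618 in HEP and 1381376_at was 0.0103 in HAL, 0.00407 in HEP and 0.00623 in HAL minus HEP. With array weights 1381376_at was 0.00703 in HEP and Irf9 1374627_at -0.0196 in HAL. With arrays centred on their median Il1r1 1369255_at was -0.00667 and Irf9 1374627_at -0.00934 in HAL, and without Sham array 3 and HAL arrays 2 and 5 the latter was -0.0520.

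With 1 array left out, differences in HAL minus Sham ranged from -0.0247 to 0.0696 for Il1r1 1369255_at and from -0.0380 to 0.0401 for Irf9 1374627_at. In HEP minus Sham they ranged from -0.00871 to 0.0531 for Tnfaip2 1375806_at and from -0.0203 to 0.0121 for 1381376_at. In HAL minus HEP they ranged from -0.152 to 0.0410 for Nfkbia, -0.0629 to 0.0101 for Tnfaip2 1381376_at, -0.304 to 0.0611 for 1388773_at, -0.193 to 0.0236 for Bst2, -0.0153 to 0.248 for Irf9 1383448_at and -0.194 to 0.127 for Rsad2.

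Over all probes, counts moved by over 1.5 times in some settings. The 94 near-10 calls in HAL became 42 without Sham array 3 and HAL arrays 2 and 5. The 55 in HEP became 127 with array weights and 96 by the model, 137 without HEP array 8, and 29 to 35 without HEP array 4, 5, 6 or 7 or Sham array 6. The 13 calls by decimals in HAL became 1 and 0 at resultant lengths of 0.35 and 0.7, 3 with short cells missing, 22 in the range of 3 to 12, 26 with array weights, 8 with the replicate block, 21 with arrays centred, and 0 with 2 groups only or without Sham array 3 and HAL arrays 2 and 5; with arrays centred 33.3% were higher, against 61.5%. They became 0 without Sham array 3, 4 or 6 or HAL array 2, 3, 6 or 8, 5 to 7 without Sham array 1, 2 or 7 or HAL array 5, and 25 without HEP array 1. In HEP the 0 became 17 with array weights and 16 without HEP array 8. In HAL minus HEP the 0 near-10 calls became 1 by the model and with the block. The cause of these changes was not tested. Levels away from 10 are unknown, so no signal over background could be given.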

Other observations

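Of 194 cells of 9 digits in the 16 member probes, 6 (3.09%) hold exactly the same 9 digits as another array of the same probe, against 0.546% of 547344 such cells over all probes. They lie in Tnfaip2 1375806_at (4 cells) and Il1r1 1370750_a_at (2 cells). Both are probes below 10, and the remaining 14 member probes have no such cell.

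Ifit2 1384180_at, which lay at 10 or above on all 24 arrays, had a cell of under 8 digits, hence with a lost zero at either end, on 4 of 8 Sham arrays and on 0 of 8 HAL and 0 of 8 HEP arrays. This count was noticed in the data and not tested.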
